A study of Homo sapiens with 18 samples.

Results

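FBXO25, TDRP, ERICH1, CLN8, ARHGEF10, MYOM2 and CSMD1 are neighbouring genes at the end of the short arm of human chromosome 8 (8p). The 7 were chosen by their RNA levels in these libraries, near 0 in every group derived from an IMPDH2 knockout, and MCPH1, ANGPT2 and AGPAT5 were set beside them as flanking genes held to be kept. These 10 genes, 7 in the run and 3 flanking, were found by symbol among the 62749 genes in the files. Because this choice used the levels in knockout-derived cells against WT, those levels are given below as a description, with no test.

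The libraries hold messenger RNA of MDA-MB-231 cells, which come from a breast cancer without hormone receptors or ERBB2 amplification. There were 6 groups of 3 libraries, 18 in all. KO cells carried an IMPDH2 knockout and received no treatment. KO+G cells were the knockout grown with 400 µM guanosine, which can feed guanine nucleotide salvage. KO+IMPDH2 cells were the knockout given back an unlocalised IMPDH2, KO+NLS-IMPDH2 cells a nuclear form and KO+NES-IMPDH2 cells a cytosolic form, all untreated. WT cells were unedited and untreated. IMPDH2 makes xanthosine monophosphate from inosine monophosphate, the step that limits the making of guanine nucleotides. All 5 knockout-derived groups share the edit, and the labels do not say whether the knockout was 1 clone or whether the lines given IMPDH2 back came from the same clone. Nor do they say whether the 3 libraries of a group were separate cultures, so each p measures only the spread between these samples.

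IMPDH2 itself averaged 41.6 ± 0.566 CPM in KO, 22.1 ± 0.11 in KO+G, 532 ± 10.4 in KO+IMPDH2, 297 ± 12.6 in KO+NLS-IMPDH2, 379 ± 13.9 in KO+NES-IMPDH2 and 319 ± 0.553 in WT. CPM is the count per 1e6 counts of the library, scaled between libraries by edgeR's TMM factors, and each ± is an SD over n = 3 libraries. Library totals ran from 45.9 to 63.3, in units of 1e6 estimated counts. Mitochondrial genes took 7.25 to 8.214% of the counts in the 15 knockout-derived libraries and 5.154 to 5.206% in the 3 WT libraries. The mesenchymal markers VIM, CD44, ZEB1 and AXL were abundant in KO and in WT, where VIM averaged 3409 and 4764 CPM. The hormone receptor genes ESR1 and PGR averaged at most 0.165 CPM in any group. ERBB2 was not low, at 74.5 ± 1.73 CPM in KO and 69.4 ± 1.17 CPM in WT. Of the blood markers CD14 averaged 1.34 CPM in KO and 1.75 CPM in WT, PTPRC 0.317 and 0.378, and CD3E and HBB were at or near 0. Of the endothelial markers PECAM1 averaged 4.91 CPM in KO and 11.1 CPM in WT, with CDH5 and VWF at most 0.194 CPM; their part in the results was not tested.

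The end of 8p is a stretch that many carcinomas, breast cancers among them, lose on 1 or both copies, and CSMD1 is often discussed as a candidate tumour suppressor there. The run is mixed in function. FBXO25 is an F-box protein, the part of an SCF ubiquitin ligase that picks the substrate, CLN8 is a membrane protein of the endoplasmic reticulum that helps lysosomal enzymes leave it, and ARHGEF10 is a guanine nucleotide exchange factor. TDRP takes part in sperm development in mice, MYOM2 is a protein of the M-band in striated muscle, and CSMD1 is a very large membrane protein with CUB and sushi domains that can restrain complement. What ERICH1 does is little known.

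In GENCODE 29 coordinates of GRCh38 the run extends from base 406428, the start of FBXO25, to base 4994972, the end of CSMD1, a span of 4.59 Mb. FBXO25 (406428 to 477967, plus strand), TDRP (489792 to 545781, minus strand) and ERICH1 (614746 to 738106, minus strand) lie closest to the chromosome end. CLN8 (1755778 to 1801711, plus strand), ARHGEF10 (1823976 to 1958641, plus strand) and MYOM2 (2045040 to 2165552, plus strand) follow. CSMD1 (2935353 to 4994972, minus strand) alone covers 2.06 Mb. Of the flanking genes, MCPH1 lies at 6406592 to 6648504 on the plus strand, ANGPT2 at 6499651 to 6563409 inside MCPH1 on the opposite strand, and AGPAT5 at 6708357 to 6759666 on the plus strand.

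The run genes together had 19 estimated counts in the 15 knockout-derived libraries and 7603 counts in the 3 WT libraries. Scaled for library size, the knockout-derived libraries kept 0.0462% of the WT level (95% interval 0.0278 to 0.0722, exact, counting error only). Of the 105 values of a run gene in a knockout-derived library, 10 were above 0 and the highest was 6 counts. The lowest value of any run gene in a WT library was 30 counts. TDRP, ERICH1 and MYOM2 had 0 counts in all 15 knockout-derived libraries. In each run gene all 15 knockout-derived libraries lay below all 3 WT libraries, as did 23.9% of the 19252 genes tested. In edgeR's fit 72.7% of all genes were called against WT in KO, 63.9% in KO+G, 64.5% in KO+IMPDH2, 65.0% in KO+NLS-IMPDH2 and 67.6% in KO+NES-IMPDH2. The run genes were chosen on these contrasts, so no test is given for them. Bulk RNA cannot tell fewer cells with a transcript from less of it in every cell.

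**Figure D1:**
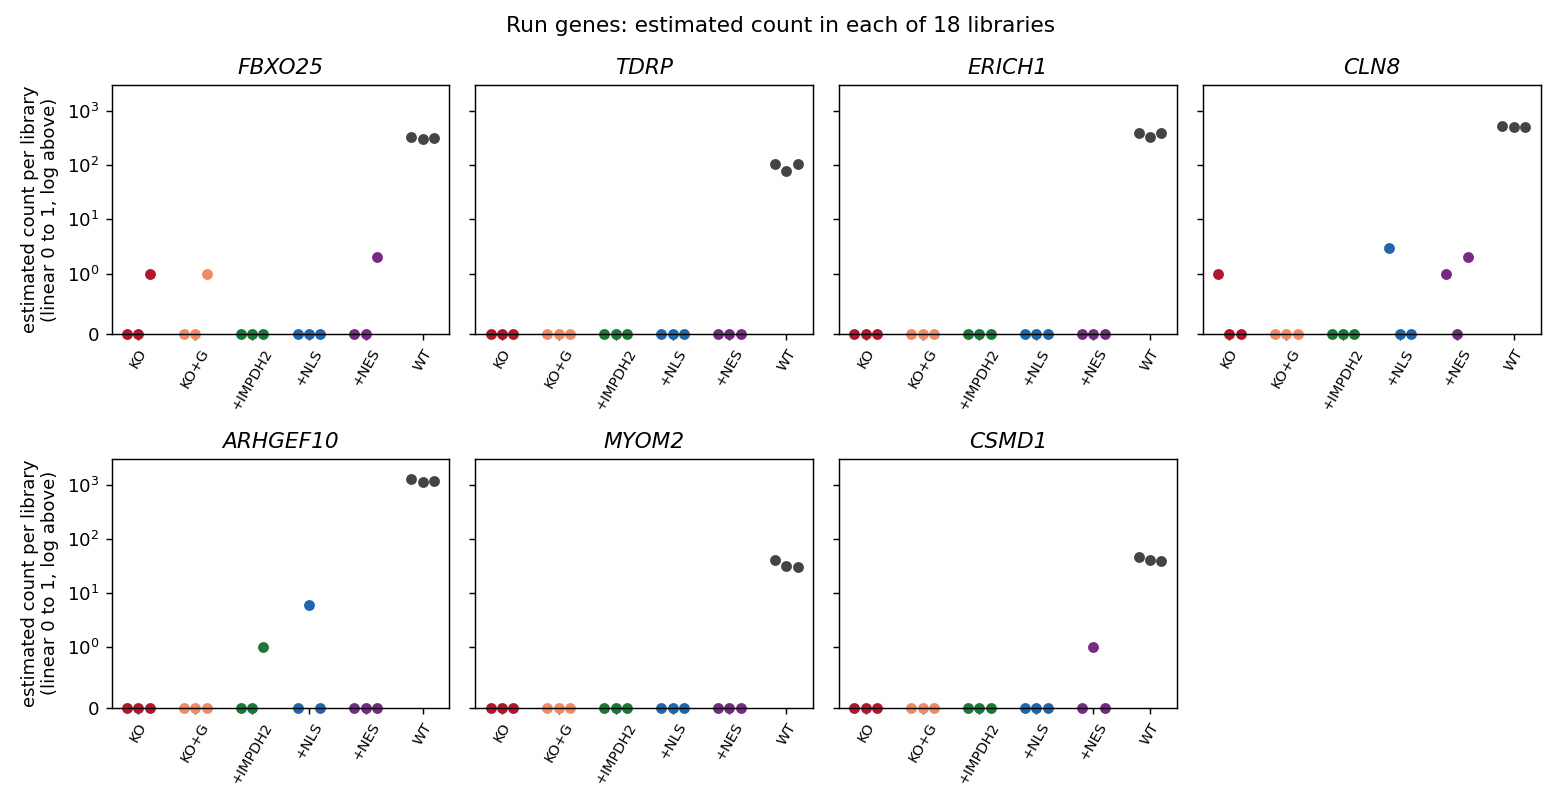
Estimated count of each run gene (vertical axis, linear from 0 to 1 and logarithmic above) in each library of the 6 groups (horizontal axis; +IMPDH2, +NLS and +NES are the knockout lines given back IMPDH2), 1 point per library. Points of the 15 knockout-derived libraries lie at 0 except for 10 values of 1 to 6 counts, and the WT points lie between 30 and 1247 counts.

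ARHGEF10, the exchange factor, was the run gene with the most counts in WT. It had 0 counts in every KO, KO+G and KO+NES-IMPDH2 library, 1 count in 1 KO+IMPDH2 library and 6 counts in 1 KO+NLS-IMPDH2 library, against 1247, 1131 and 1152 counts in WT. The WT libraries averaged 23.5 ± 0.471 CPM, and the 15 knockout-derived libraries kept 0.0367% of that (95% interval 0.0147 to 0.0756). All 7 residual counts sat on ARHGEF10-211, a transcript with a retained intron that carried 0.6% of the gene's counts in WT. The 4 coding transcripts that carried most of the WT counts, ARHGEF10-204, ARHGEF10-207, ARHGEF10-210 and ARHGEF10-201, were at 0 in each of the 15 knockout-derived libraries.

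CLN8 had 1 count in 1 KO library, 0 in all KO+G and KO+IMPDH2 libraries, 3 in 1 KO+NLS-IMPDH2 library, and 1 and 2 in 2 KO+NES-IMPDH2 libraries, against 520, 499 and 494 counts in WT. This left 0.0855% (95% interval 0.0343 to 0.177) of a WT level of 10.1 ± 0.438 CPM. Its 7 residual counts all sat on CLN8-201, the main coding transcript, which held 64.2% of the gene's counts in WT. So the residue of CLN8 lay on its usual transcript and that of ARHGEF10 on a minor one.

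FBXO25 had 1 count in 1 KO library, 1 in 1 KO+G library, 2 in 1 KO+NES-IMPDH2 library and 0 in all KO+IMPDH2 and KO+NLS-IMPDH2 libraries, against 324, 303 and 311 counts in WT. It kept 0.0789% (95% interval 0.0214 to 0.203) of a WT level of 6.24 ± 0.168 CPM. CSMD1 had a single count, in 1 KO+NES-IMPDH2 library, against 47, 40 and 39 counts in WT, or 0.147% of WT with a 95% interval of 0.00369 to 0.833. These residues are at the level of single reads, and no group of the 5 had a residue of its own in more than 2 libraries of any run gene.

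ERICH1 had 0 counts in the knockout-derived libraries, against 390, 332 and 383 counts in WT, which makes it at least 1992-fold lower when 3 counts over all 15 libraries are taken as the floor. TDRP had 0 counts against 105, 78 and 105 in WT, at least 519-fold lower on the same floor. MYOM2 had 0 counts against 41, 32 and 30 in WT, at least 186-fold lower. For the KO group alone, with 3 counts over its 3 libraries as the floor, the bounds were at least 425-fold for ERICH1, 111-fold for TDRP and 39.6-fold for MYOM2. The bounds rank the genes by their depth in WT, so they do not show that ERICH1 was lost more fully than MYOM2.

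Per length, the WT levels of the run were low to moderate. ERICH1 averaged 6.59 ± 0.192 TPM (a level per length, as a share of 1e6 transcripts), ARHGEF10 6.18 ± 0.558, FBXO25 5.05 ± 1.35 and CLN8 4.45 ± 0.429 in WT. TDRP averaged 1.75 ± 1.26 TPM, MYOM2 1.11 ± 0.122 and CSMD1 0.0752 ± 0.00589. The WT libraries of ERICH1 and ARHGEF10 overlapped in TPM, as did those of ARHGEF10 and FBXO25, FBXO25 and CLN8, and TDRP and MYOM2, while CSMD1 lay below all of these. In CPM, 5 of the 7 run genes reached 1 CPM in WT; MYOM2, at 0.683 ± 0.0853, and CSMD1, at 0.837 ± 0.0525, did not.

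The transcripts behind the WT levels differed between the genes. Coding transcripts carried 99.1% of the WT counts of TDRP, 98.1% of CSMD1, 96.1% of FBXO25, 95.1% of ARHGEF10, 93.5% of CLN8 and 84% of ERICH1. For MYOM2 they carried 4.1%, with the rest on transcripts that have no defined coding sequence, so few of the MYOM2 counts in WT lay on transcripts for the M-band protein. Salmon divides shared reads between transcripts by estimation, and such splits are less certain than gene sums.

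The filter on low counts kept 9 of the 10 genes, all but ANGPT2. The flanking genes did not behave alike. ANGPT2, a ligand of the receptor TEK that modulates vessel growth, had 3, 1 and 1 counts in KO, 2, 1 and 3 in KO+G, 0 in all KO+IMPDH2 libraries, 1 in each KO+NLS-IMPDH2 library, 4, 1 and 0 in KO+NES-IMPDH2 and 0, 0 and 1 in WT. It was hardly detected in any group, WT included, so its level cannot show whether the gene was kept.

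MCPH1, microcephalin, restrains condensin until mitosis and takes part in the DNA damage response. It had 11, 10.5 and 11 CPM in the KO libraries, against 10.3, 11 and 10.5 CPM in WT, or 102% of the WT mean. AGPAT5, a mitochondrial acyltransferase that makes phosphatidic acid, had 38.6, 37 and 40 CPM in KO, against 38.9, 36.3 and 38.7 CPM in WT, also 102%. For both genes the KO and WT libraries overlapped. In the other groups AGPAT5 stood at 118% of WT in KO+G, 112% in KO+IMPDH2, 114% in KO+NLS-IMPDH2 and 106% in KO+NES-IMPDH2, with no overlap with WT. MCPH1 did not overlap WT in KO+G, at 90.6%, and did in the other 3. In these comparisons with WT 63.9 to 67.6% of all genes tested were called. The share of all genes without overlap was not counted group by group. With library totals in place of TMM scaling, both stood at 114% of WT in KO, since the TMM scaling of KO differed from that of WT by 0.16 on the log2 scale.

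**Figure D2:**
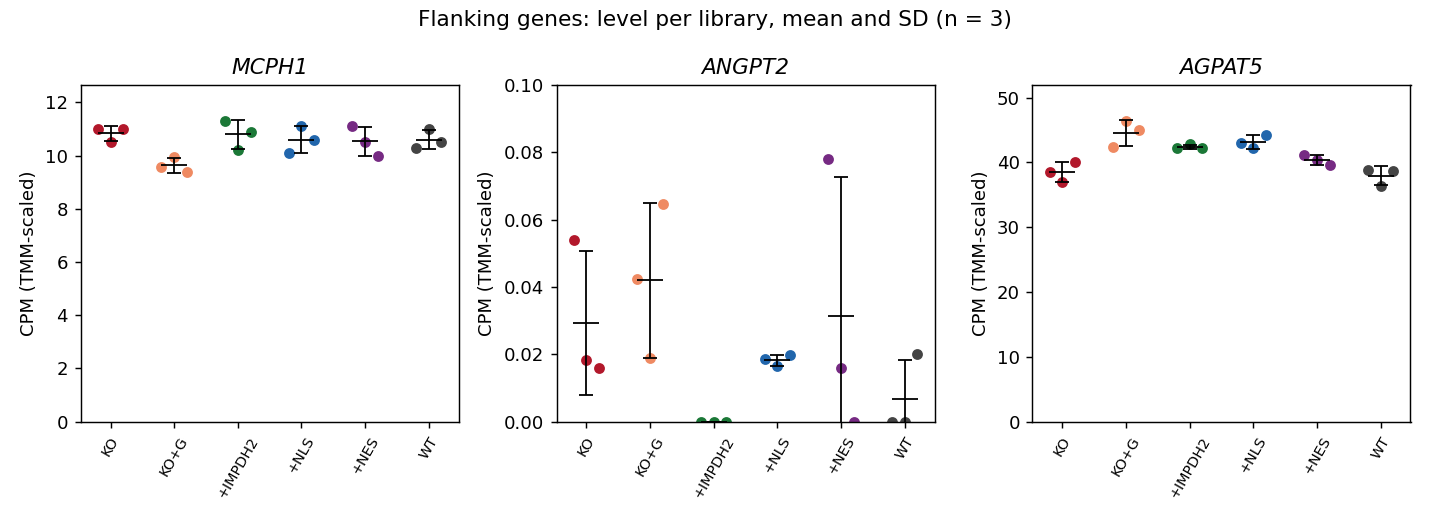
CPM of MCPH1, ANGPT2 and AGPAT5 (vertical axes, each from 0) in the 6 groups; points are libraries, bars are the mean and SD of n = 3. MCPH1 lies between 9.38 and 11.3 CPM and AGPAT5 between 36.3 and 46.4 CPM in all libraries, and ANGPT2 stays at or below 0.078 CPM.

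Differences of the kept genes between knockout-derived groups played no part in the choice and were tested with edgeR's quasi-likelihood test over all genes. The comparisons with KO share the KO libraries. AGPAT5 was higher with guanosine, at 44.6 ± 2.04 CPM in KO+G and 38.5 ± 1.51 CPM in KO, a log2 fold change of 0.21 ± 0.038 (SE, adjusted p = 0.000119), where 56.5% of all genes tested were called. It was also higher in KO+NLS-IMPDH2, at 43.2 ± 1.03 CPM (log2 fold change 0.16, adjusted p = 0.00141, 53.0% of genes called), and in KO+IMPDH2, at 42.4 ± 0.352 CPM (0.14, adjusted p = 0.00529, 50.8% called). In KO+NES-IMPDH2 it stood at 40.4 ± 0.806 CPM, which did not pass (0.07, adjusted p = 0.159, 95% interval -0.01 to 0.14, 50.6% called). Nuclear against cytosolic IMPDH2 did not pass either for AGPAT5 (0.1, adjusted p = 0.0775, 95% interval 0.02 to 0.17 before adjustment, 23.9% called). An offset for transcript length ended the AGPAT5 calls for KO+G (0.11, adjusted p = 0.234) and KO+IMPDH2 (0.09, adjusted p = 0.355), and library totals ended those for KO+IMPDH2 (0.06, adjusted p = 0.212) and KO+NLS-IMPDH2 (0.08, adjusted p = 0.0823).

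MCPH1 was lower with guanosine, with 9.59, 9.93 and 9.38 CPM in the KO+G libraries and 11, 10.5 and 11 CPM in KO, so the groups did not overlap. The log2 fold change was -0.17 ± 0.055 (SE, edgeR adjusted p = 0.0141), where 56.5% of all genes tested were called. The call ended with DESeq2 (adjusted p = 0.0695), with no filter on low counts (0.123), with the length offset (0.19) and without KO replicate 1 (0.0578). MCPH1 did not pass in KO+IMPDH2, KO+NLS-IMPDH2 or KO+NES-IMPDH2 against KO in edgeR (adjusted p = 0.953, 0.664 and 0.547), nor between the nuclear and cytosolic forms (0.915). With library totals KO+NES-IMPDH2 passed as lower than KO (-0.13, adjusted p = 0.048), and the main 95% intervals of these comparisons lay within -0.15 and 0.12. So against KO the kept genes moved by at most 0.21 on the log2 scale. The run genes were at or near 0 with guanosine and with each form of IMPDH2, as their choice required.

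The transcript makeup of MCPH1 was too variable to compare. MCPH1-228 took between 0 and 24% of the gene's counts among the 3 KO libraries and 0 in WT, while MCPH1-225 was at 0 in every knockout-derived library but also in 1 WT library. AGPAT5-201, the main coding transcript of AGPAT5, carried 49.9 ± 1.65% of its counts in KO and 56.4 ± 1.69% in WT (no test).

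Genes between the run genes and beside them showed where the low stretch ends on the side of MCPH1. On the telomere side no gene with at least 10 counts stood at a kept level, so no start of the stretch is shown there. Of the 12 annotated coding genes from the chromosome start to the end of CSMD1, 10 had at least 10 counts in WT, and 9 of these 10 had at most 1% of the WT level in each knockout-derived group. They are the 7 run genes with KBTBD11 and KBTBD11-OT1. KBTBD11, a Kelch and BTB domain protein, had 0 counts in the 15 knockout-derived libraries and 57 in the WT libraries. KBTBD11-OT1, whose annotated span overlaps ARHGEF10 and CLN8, had 0 counts in the 15 libraries and 136, 0 and 16 counts in WT. Its place in this count rests mainly on 1 WT library, its groups overlap, and it did not pass the filter on low counts. CLN8-AS1, antisense within CLN8, had 4 counts in the 15 libraries and 295 in WT; the kit kept strand, but whether the counting used it is not given in the sources used here. DLGAP2, a postsynaptic scaffold gene between ERICH1 and CLN8, had 0 counts in all 18 libraries and so says nothing.

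The exception among the 10 was ZNF596, a zinc finger gene at 232137 to 264703, on the telomere side of FBXO25. It had 62 counts in the 15 knockout-derived libraries and 156 in WT, and kept 7.35% of the WT level (95% interval 5.38 to 9.92). Most of the residue lay on 1 short transcript: ZNF596-207 took 95.2 ± 8.28% of the gene's counts in KO and 16.2 ± 4.78% in WT. The coding transcripts ZNF596-202 and ZNF596-203, with 55.4% and 21.3% of the WT counts, were at 0 in all 15 knockout-derived libraries. In KO+NLS-IMPDH2 all 3 libraries had 0 counts of ZNF596, while KO had 4, 7 and 9.

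On the other side, the long intergenic RNA ENSG00000253880 (6044353 to 6257537, no symbol in the files) kept 5.13% of the WT level (95% interval 3.71 to 6.99), with 53 counts in the 15 knockout-derived libraries and 191 in WT. The first gene at a kept level was MCPH1-DT, a divergent transcript beside MCPH1 that starts at 6403551, with 276 counts in KO and 158 in WT. Between the end of that long RNA and the start of MCPH1-DT lie 146 kb. PAICSP4, a processed pseudogene inside CSMD1, had 7 counts in KO, 12 in KO+G, 6 in KO+IMPDH2, 9 in KO+NLS-IMPDH2, 10 in KO+NES-IMPDH2 and 9 in WT. Processed pseudogenes are copies of a gene elsewhere, and its few counts are uncertain for that reason.

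**Figure D3:**
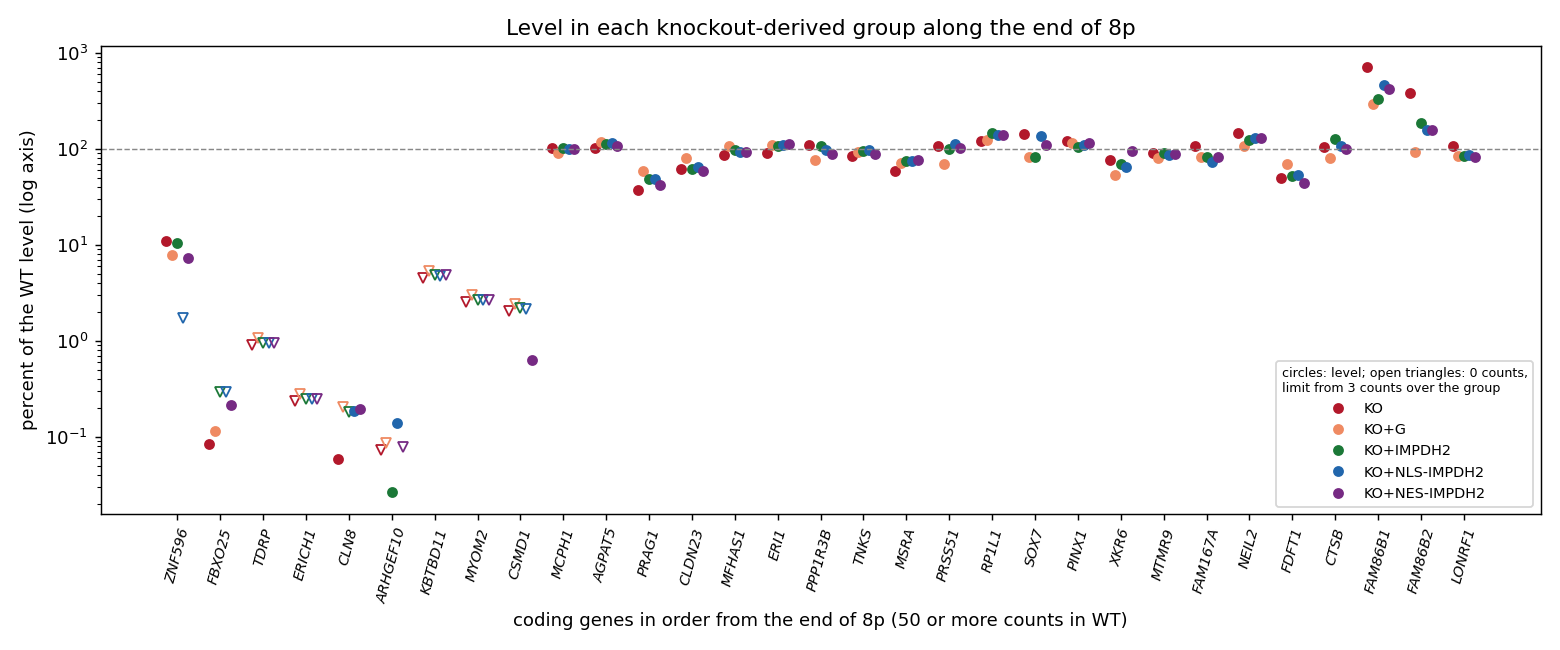
Level in each of the 5 knockout-derived groups as a percent of WT (vertical axis, logarithmic) for coding genes with at least 50 counts in WT, in order from the chromosome end (horizontal axis); circles are levels and open triangles are limits from 3 counts over a group with 0 counts. Levels are at most 1% of WT from FBXO25 to CSMD1 wherever a count was seen, and stand near 100% at MCPH1 and AGPAT5.

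From MCPH1 on, the genes of 8p had a median near the WT level. Of 23 coding genes tested from the end of CSMD1 to 13 Mb, MCPH1 and AGPAT5 included, 5 were higher in KO than in WT, 8 were lower and 10 missed the threshold, at a median log2 fold change of 0.03. This is 56.5% called, against 80.2% of all 14000 coding genes tested and a median of -0.07. With library totals, which moved the median of all genes to 0.17 from 0.01, 10 were higher and 4 lower. From 13 to 45 Mb, 46 of 133 coding genes were higher and 61 lower (median -0.09), and from 45 Mb to the end of the chromosome 75 of 312 were higher and 177 lower (median -0.24). With library totals the counts were 60 higher and 43 lower (median 0.07) from 13 to 45 Mb, and 100 higher and 146 lower (median -0.08) from 45 Mb on. The 9 coding genes tested from the chromosome start to CSMD1 had a median of -9.59, which the choice of genes fixed.

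Several neighbours past MCPH1 changed by themselves. PRAG1, a pseudokinase, was lower at 15.4 ± 1.58 CPM in KO and 41.2 ± 0.537 CPM in WT (log2 fold change -1.42 ± 0.062, edgeR adjusted p = 3.46e-13). FDFT1, squalene synthase of the cholesterol pathway, fell to 56.8 ± 1.61 CPM in KO, against 114 ± 0.608 CPM in WT (-1.0, adjusted p = 1.78e-14). MSRA, which repairs oxidised methionine, was lower by a log2 fold change of -0.78 and TNKS, tankyrase, by -0.23, the second lost with library totals (adjusted p = 0.202) and with the length offset (0.492). NEIL2, a DNA glycosylase of base excision repair, was higher, at 12.2 ± 0.531 CPM in KO and 8.37 ± 0.758 CPM in WT (0.54). FAM86B1 and FAM86B2 also were higher (2.82 and 1.94), but they have near-identical copies, so their counts are uncertain. CTSB, a lysosomal protease, had 172 ± 3.72 CPM in KO and 166 ± 5.45 CPM in WT and did not pass (adjusted p = 0.056), though it passed with library totals (6.9e-07).

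**Figure D4:**
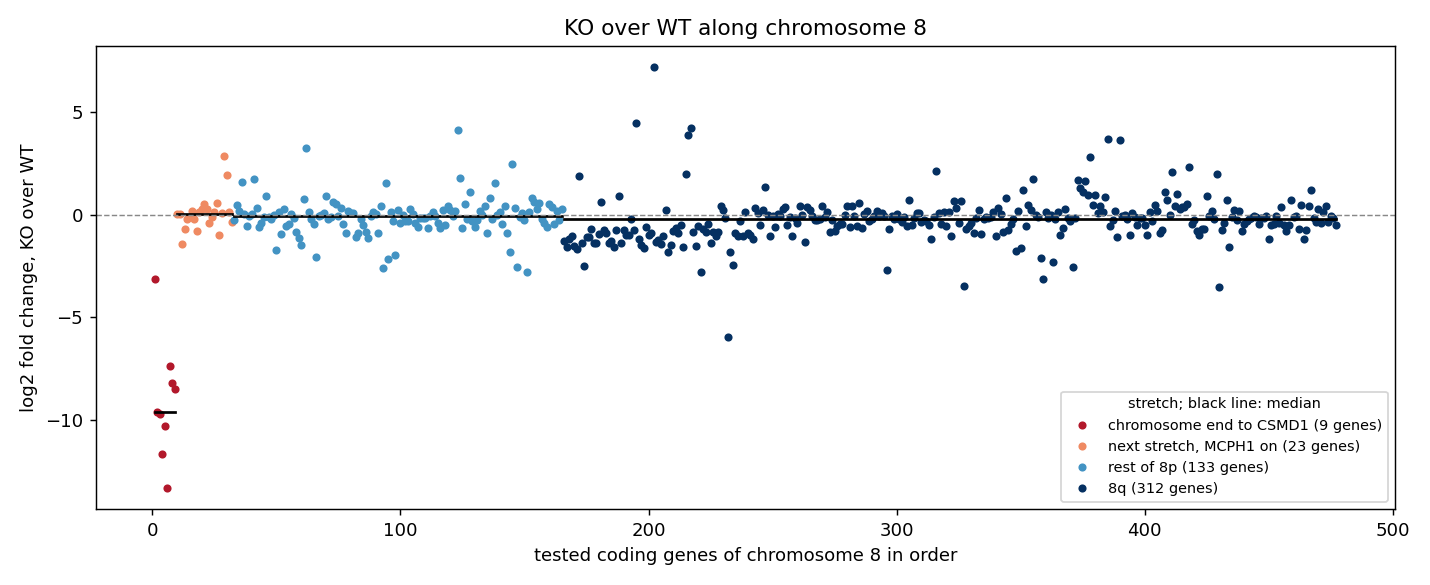
Log2 fold change of KO over WT (vertical axis) for the tested coding genes of chromosome 8 in order (horizontal axis), coloured by stretch, with the median of each stretch as a black line. The 9 genes from the chromosome end to CSMD1 lie far below the rest, at a median of -9.59, and the next stretch has a median of 0.03.

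The lost pattern was rare across the genome. Of 14002 genes with a mean of at least 1 CPM in WT, 38 (0.271%) had at most 1% of the WT mean in each of the 5 knockout-derived groups. The 5 run genes above 1 CPM in WT are among them, as their choice required, and so is CLN8-AS1; 6 of the 7 genes above 1 CPM from the chromosome start to CSMD1 had the pattern, all but ZNF596. By chromosome, 13 of the 38 lay on X, 7 on chromosome 8 and 5 on chromosome 1. The 6 neighbours from FBXO25 to ARHGEF10 form a run without a break among genes at this level. A run of 7 on X (MAGEA3, CSAG2, MAGEA2B, CSAG1, MAGEA12, MAGEA2 and CSAG3) was longer, in families of near-identical copies whose reads are shared. No other run held more than 1 gene. With a minimum of 0.5 CPM in WT, set after seeing the data, the run on 8p reached 9 genes from FBXO25 to CSMD1 and that on X stayed at 7. KBTBD11-OT1, 1 of the 9, is over this minimum only through WT replicate 1, at 2.55, 0 and 0.32 CPM in the WT libraries. With 5% of WT in place of 1%, the run on X reached 10 and that on 8p stayed at 6. The next at that cutoff were a run of 3 on chromosome 18 and a run of 2 on chromosome 7. The reverse pattern, at least 1 CPM in every knockout-derived group and at most 1% of that in WT, was met by 11 genes, 1 of them on chromosome 8.

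Outside the stretch, the 5 genes with the highest WT level among the 38 that share the pattern (a rank by level, with no measure of likeness) were PHGDH, MAGEA3, MXRA8, COL4A5 and TUBA3C. PHGDH, the first enzyme of serine synthesis, on chromosome 1, had 4 counts in the 15 knockout-derived libraries and 9766 in WT. MXRA8, a membrane adhesion protein, had 27 counts and 4629 in WT, and COL4A5, a chain of collagen IV, had 12 and 3117. MAGEA3 and TUBA3C share sequence with close relatives, so their counts are uncertain.

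Relatives of these genes elsewhere in the genome moved in both directions. Of 17, 14 were tested, and in KO against WT 3 were higher and 6 lower while 5 missed the threshold (median log2 fold change -0.14). With library totals 4 were higher and 4 lower (median 0.02). Over all genes tested 72.7% were called and the median was 0.01. ARHGEF10L, the closest relative of ARHGEF10, was itself nearly lost. It had 1, 2 and 3 counts in KO, 0, 1 and 1 in KO+G, 0, 1 and 0 in KO+IMPDH2, 5, 9 and 4 in KO+NLS-IMPDH2, and 1, 2 and 2 in KO+NES-IMPDH2, against 165, 134 and 110 counts in WT. It lies on chromosome 1 (17539835 to 17697874), and the 15 knockout-derived libraries kept 1.45% of the WT level (95% interval 0.976 to 2.07). In KO against WT the log2 fold change was -6.2 ± 0.39 (SE, edgeR adjusted p = 6.68e-11). Of the residues KO+NLS-IMPDH2 had the highest, at 0.107 ± 0.0363 CPM, against 0.034 ± 0.0149 CPM in KO. Both rest on at most 9 counts in a library, and this group was singled out after its value was seen, so no test is given.

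Among the other relatives, TLCD1, which shares the TLC domain of CLN8, was higher, at 57.8 ± 4.9 CPM in KO and 13.5 ± 1.06 CPM in WT (log2 fold change 2.1 ± 0.067, edgeR adjusted p = 4.52e-15). AGPAT4 was lower at 8.11 ± 0.512 CPM in KO and 26.9 ± 0.623 CPM in WT (-1.73), and AGPAT1 higher at 226 ± 3.89 and 155 ± 2.46 CPM (0.54). ANGPT1, the other main ligand of TEK, was lower at 2.11 ± 0.0382 CPM in KO and 3.97 ± 0.783 CPM in WT (-0.91, adjusted p = 1.38e-05). It averaged 2.31 CPM in KO+G, 3.87 in KO+IMPDH2, 4.16 in KO+NLS-IMPDH2 and 4.03 in KO+NES-IMPDH2. CSMD3, the relative of CSMD1 on the long arm of chromosome 8, had 0.33 ± 0.135 CPM in KO and 0.301 ± 0.0658 CPM in WT and did not pass. CSMD2 was too low to be tested.

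Of the 4 partners of FBXO25, 3 were lower and 1 higher in KO than in WT, where 72.7% of all genes tested were called. The other SCF parts SKP1, at 121 ± 4.77 CPM in KO and 192 ± 3.81 CPM in WT, and CUL1, at 58.5 ± 3.01 and 76.2 ± 0.532 CPM, were lower (log2 fold changes -0.66 and -0.38), as was HAX1, a reported substrate of FBXO25 (-0.26). RBX1, the RING subunit, was higher (0.25). In the other knockout-derived groups CUL1 averaged 74.2 to 77.2 CPM, near WT, and RBX1 36.7 to 40.9 CPM, against 39.4 CPM in WT. SKP1, at 125 to 141 CPM there, and HAX1, at 54.3 to 56.0 CPM against 71.8 CPM in WT, stayed below WT.

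Of the 12 other genes of neuronal ceroid lipofuscinosis, the lysosomal storage disease that CLN8 mutations cause, 4 were higher, 7 lower and 1 missed the threshold (median -0.1), beside 72.7% called over all genes; with library totals 5 were higher and 5 lower (median 0.06). TPP1, a lysosomal peptidase, was higher at 478 ± 22.2 CPM in KO and 162 ± 4.67 CPM in WT (1.56), and GRN, progranulin, at 782 ± 22.3 and 436 ± 15.2 CPM (0.84). ATP13A2, a lysosomal polyamine transporter, was lower at 26.6 ± 0.97 CPM in KO and 126 ± 2.34 CPM in WT (-2.25), and DNAJC5, a synaptic vesicle chaperone, at 146 ± 1.77 and 213 ± 2.69 CPM (-0.54).

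Around MCPH1, 14 of the 15 condensin and microcephaly genes were lower in KO than in WT, 0 were higher and 1 did not pass (median log2 fold change -0.72, beside 0.01 over all genes, of which 72.7% were called and 7084 of 19252 were lower). With library totals 11 were lower and 1 higher (median -0.56). SMC4, a condensin core subunit, averaged 93.8 ± 3.24 CPM in KO and 356 ± 9 CPM in WT (-1.93), NCAPG, a condensin I subunit, 53.4 ± 1.25 and 155 ± 4.31 CPM (-1.53), and NCAPD2, another, 122 ± 2.48 and 257 ± 3.18 CPM (-1.08). ASPM, a spindle protein mutated in microcephaly, averaged 30.2 ± 2.44 CPM in KO and 143 ± 7.48 CPM in WT (-2.25). These 4 genes stood above KO in KO+G, SMC4 at 224, NCAPG at 119, NCAPD2 at 240 and ASPM at 91.7 CPM (56.5% of all genes called). They also did with each form of IMPDH2, SMC4 at 180 CPM in KO+IMPDH2 for instance, and stayed below WT in every knockout-derived group. These 4 were picked by the smallest adjusted p in KO against WT, and the rest of the list was mixed. NCAPG2 and WDR62, for instance, averaged above WT in KO+G and with each form of IMPDH2, while STIL averaged below WT there. MCPH1 itself stood at 102% of WT in KO. Of the 7 glycerolipid enzymes around AGPAT5, 2 were higher and 5 lower (median -0.29), beside the same 72.7%, and with the offset for transcript length 1 was higher and 4 lower. Among the lower were GPAT2, a glycerol-phosphate acyltransferase, at 7.03 ± 0.372 CPM in KO and 27.5 ± 1.09 CPM in WT (-1.97), and the lipin LPIN1 at 114 ± 3.39 and 216 ± 6.45 CPM (-0.92).

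Of the receptors of the angiopoietins, 1 was higher and 1 lower in KO than in WT, where 72.7% of all genes tested were called. TEK, the receptor that angiopoietins bind, was higher at 1.62 ± 0.205 CPM in KO and 0.108 ± 0.0471 CPM in WT (log2 fold change 3.9 ± 0.28, edgeR adjusted p = 4.7e-10). It stood at 1.83 ± 0.301 CPM in KO+G, 1.36 ± 0.182 in KO+IMPDH2, 2.0 ± 0.209 in KO+NLS-IMPDH2 and 0.457 ± 0.141 in KO+NES-IMPDH2. Nuclear against cytosolic IMPDH2 gave a log2 fold change of 2.13 ± 0.22 (adjusted p = 1.96e-06). TIE1, its co-receptor, was lower at 4.87 ± 0.267 CPM in KO and 11 ± 0.408 CPM in WT (-1.17 ± 0.07, adjusted p = 3.23e-11). It stood at 2.49 ± 0.194 CPM in KO+G, 2.05 ± 0.115 in KO+IMPDH2, 10.5 ± 0.459 in KO+NLS-IMPDH2 and 2.44 ± 0.0989 in KO+NES-IMPDH2, and nuclear against cytosolic IMPDH2 gave 2.11 ± 0.074 (adjusted p = 4.41e-12). Both receptors were thus higher with the nuclear than with the cytosolic form, and the libraries of the 2 forms did not overlap. In that comparison 23.9% of all genes tested were called. PECAM1, an endothelial marker, moved in the same direction as TIE1 in KO against WT, at 4.91 ± 0.834 and 11.1 ± 0.995 CPM. In KO+NLS-IMPDH2, where TIE1 was near WT, PECAM1 averaged 5.1 CPM, and in the other groups 3.19 to 3.92 CPM. CDH5 averaged at most 0.0125 CPM in any group, and the part of both markers was not tested.

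**Figure D5:**
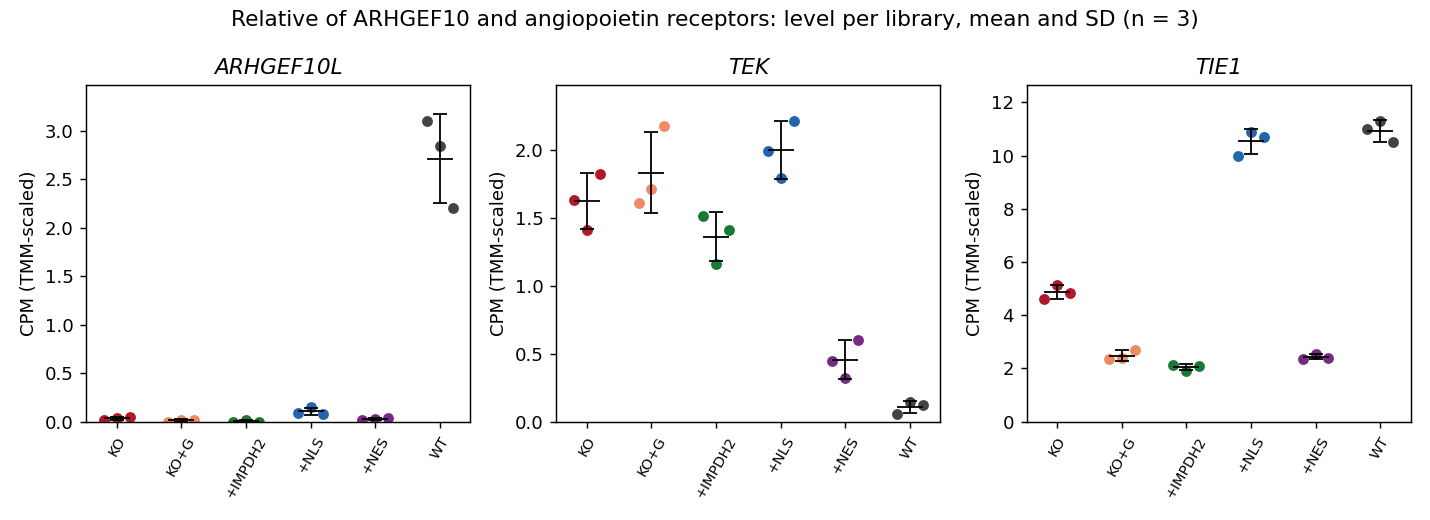
CPM of ARHGEF10L, TEK and TIE1 (vertical axes, each from 0) in the 6 groups; points are libraries, bars are the mean and SD of n = 3. ARHGEF10L is near 0 in all knockout-derived groups and averages 2.71 CPM in WT, TEK averages 0.457 CPM in KO+NES-IMPDH2 and 0.108 CPM in WT and more elsewhere, and TIE1 averages 10.5 CPM in KO+NLS-IMPDH2 and 11 CPM in WT.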

How the data were processed

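Per the file headers, the deposited tables hold Salmon's estimated counts, TPM and effective lengths for 252048 transcripts. The submitters' processing notes list Trim Galore 0.6.10 for trimming, Salmon 1.10.0 and the genome hg19. Identifiers match GENCODE, so positions are from GENCODE 29 (GRCh38), which places 57804 of 62749 genes. Per the labels, 500 ng of RNA entered stranded libraries.

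The deposited estimated counts were summed to genes and rounded, since 32.3% were not whole (tolerance 0.001). The TPM values, computed by the authors with Salmon, were summed to genes. A filter on low counts (filterByExpr) left 19252 genes. One edgeR 4.0.16 quasi-likelihood fit in R 4.3.3 held all 18 libraries, scaled by TMM, with 1 mean for each group and Benjamini-Hochberg adjustment over all genes within each comparison, at a threshold of 0.05. CPM comes from those rounded sums and the TMM-scaled library sizes. Percent-left intervals are exact (95%) and, like the floor of 3 counts, cover counting error only. The scripts were tested on simulated data. The labels number the cell line differently in each sample, but the growth protocol gives MDA-MB-231.

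The named genes are the members, IMPDH2, the coding genes of the same stretch and band, relatives and partners, with up to 4 of each list by the smallest adjusted p; ANGPT1, CSMD2 and CSMD3 were added after their values were seen. One list is not reported here. Members and lists were chosen with earlier results of these data known. The alternatives were DESeq2 1.42.0, its size factors, library totals, no filter, a length offset, a replicate block, the compared libraries alone and each library left out in turn.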

Additional observations from a re-analysis of the deposited data

How the results depend on the processing

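The common coefficient of variation was 4.87%, and 19252 genes were tested. An offset for transcript length lowered the genes called in KO+IMPDH2 against KO to 6511, where 9780 were called, and in KO+NLS-IMPDH2 against KO+NES-IMPDH2 to 1858, where 4600 were called. The count of genes with the lost pattern, 38, was 68 at up to 5% of WT and 22 at 5 CPM or more in WT; the choice of cutoffs sets these by construction. Leaving out each library in turn gave 37 to 41. The same gave 13547 to 13641 genes called in KO against WT, where 13996 were called with all libraries. With library totals 8765 were higher and 5485 lower, against 6912 and 7084 with TMM. Library totals likewise moved the share of calls that were higher to 58.8% (48.6% with TMM) in KO+G against WT, and against KO to 35.3% (50.6%) in KO+IMPDH2, 35.0% (49.3%) in KO+NLS-IMPDH2 and 32.2% (48.6%) in KO+NES-IMPDH2. Of 858 values for 66 single-gene comparisons, 815 kept the side of the threshold, 27 lost the call with the sign kept and 13 gained it. A change of sign was looked for only among calls of the main fit, and 3 values changed sign and lost the call. The 3 were ERI1 in KO against WT (-0.13; library totals 0.03) and MTMR9 (-0.14; library totals 0.02 and length offset 0.02); the cause was not tested.

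The replicate block gave 13955 genes called in KO against WT and changed no call among the 66 single-gene comparisons. The numbers do not pair the samples: among 45 same-numbered pairs the correlation of deviations was -0.09 to 0.14, over 0.1 in 1, and 4 of 18 libraries lay closest to their own number. Among the 7 run genes depth limits MYOM2 and CSMD1 most, with 103 and 126 counts over the WT libraries; KBTBD11 had 57 and ANGPT2 1.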

Other observations

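Chromosome 8 showed a second stretch of lower RNA, on the long arm, longer than the run at the end of 8p but lowered by much less. It was noticed in the plot of the chromosome and then summarised in bins of 10 Mb, so it has no test. In the 23 tested coding genes that start between 50 and 60 Mb the median log2 fold change over WT was -1.01 in KO, -1.05 in KO+G, -1.0 in KO+IMPDH2, -1.0 in KO+NLS-IMPDH2 and -1.06 in KO+NES-IMPDH2. From 60 to 70 Mb (23 genes) the medians lay between -0.67 and -0.91, and from 70 to 80 Mb (24 genes) between -0.88 and -0.99. From 40 to 50 Mb (26 genes) the medians were between -0.07 and -0.26, and from 80 to 90 Mb (25 genes) between -0.02 and -0.19. The bin from 40 to 50 Mb holds genes on both sides of 45 Mb. In KO the genes past 45 Mb, SPIDR, CEBPD, PRKDC, MCM4, UBE2V2 and SNAI2, lay between -1.06 and -1.66. Those just before 45 Mb, HOOK3, FNTA, POMK and HGSNAT, lay between -0.48 and 0.26, so the lower values began before 50 Mb. In KO 20 of the 23 genes from 50 to 60 Mb, 17 of the 23 from 60 to 70 Mb and 21 of the 24 from 70 to 80 Mb had a log2 fold change below 0, as did 7633 of all 14000 coding genes tested (54.5%). The 5 comparisons share the WT libraries. No bin had a median near that of the run on 8p.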
